A study of Homo sapiens with 35 samples.

Results

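The cells described here are the mesoderm arm of a single-cell experiment on the established embryonic stem cell line H1, collected at 72 h of differentiation in 1 library. Members were all barcodes of that library with at least 500 genes detected and at most 10% of their unique molecular identifiers (UMIs, each standing for 1 captured RNA molecule) in mitochondrial genes. This left 5632 cells of 6266 barcodes, out of 14336 cells kept by the same rule in the 3 single-cell libraries. Meso 72 h cells were made by STEMdiff Mesoderm Induction, a commercial medium whose composition the labels do not give. The Endo 72 h library, with 4511 cells kept, is definitive endoderm from planar culture with Activin A at 100 ng/ml on all 3 days and CHIR99021 at 3 µM on day 1. The 36 h library, with 4193 cells kept, is primitive streak cells of that same Activin A and CHIR99021 protocol at an earlier time. Activin A stands in for Nodal, a related ligand, and CHIR99021 inhibits GSK3 and so turns on Wnt signalling. All 3 libraries come from H1 cells that were counted after fluorescence-activated sorting, but the labels do not give the gate for Meso 72 h. A feature for the fluorescent protein mNeonGreen was counted beside the human genes. It had 0 UMIs in Meso 72 h cells, 242 CPM (UMIs scaled to equal library totals) in Endo 72 h cells and 0.130 CPM in 36 h cells.

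Mesoderm forms when epiblast cells pass through the primitive streak under Wnt, BMP, FGF and Nodal signals. Cells at the caudal end of the embryo keep high Wnt signalling and express the T-box factors TBXT and TBX6, the CDX factors and, in order along each gene cluster, the HOX genes that mark position on the body axis. High and lasting Nodal or Activin signalling instead favours definitive endoderm, marked by EOMES, SOX17, CER1 and the LEFTY genes.

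There was 1 library per group, so no test between groups was possible, and each difference below compares libraries. Levels are sums of UMIs over the kept cells as CPM, with exact Poisson intervals, and shares of cells carry exact binomial (Clopper-Pearson) intervals, all at 95%. These intervals cover counting error only. Kept cells held 45.1 M UMIs in Meso 72 h, 33.8 M in Endo 72 h and 77.2 M in 36 h. Median depth per cell was 7874 UMIs in Meso 72 h, 7680 in Endo 72 h and 21150 in 36 h. Cells with under 2000 UMIs made up 1.65% of Meso 72 h, 18.3% of Endo 72 h and 18.5% of 36 h. Meso 72 h shared 31 kept barcodes with Endo 72 h and 38 with 36 h, 68 of its 5632 in all. The 6266 barcodes exceeded the 1000 to 5000 cells per channel that the labels state as the aim.

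The markers of the labelled identity were TBXT, HOXB1, CDX2, MSX1, TBX6 and DKK1. They were chosen with earlier results of these data known, so their levels describe the library and are no check of its label. All 6 were at least 10-fold higher in Meso 72 h cells than in either other library. Most markers of endoderm, endothelium, blood, neural tissue, amnion and trophoblast were under 1 CPM, with the exceptions given below.

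TBXT (ENSG00000164458, chromosome 6, 166157656 to 166168700, minus strand; this and the following positions are of GRCh38 in GENCODE release 29) is the Brachyury factor of streak and nascent mesoderm. It stood at 326 CPM in Meso 72 h cells (interval 321 to 332), against 3.05 CPM in Endo 72 h cells and 28.3 CPM in 36 h cells. That is 107-fold above Endo 72 h (interval 88.2 to 131) and 11.5-fold above 36 h (11.0 to 12.1). TBX6 (ENSG00000149922, chromosome 16, 30085793 to 30091887, minus strand), the T-box factor of presomitic mesoderm, stood at 82.1 CPM in Meso 72 h cells, against 7.58 CPM in Endo 72 h cells and 5.54 CPM in 36 h cells. Its 10.8-fold ratio over Endo 72 h (9.54 to 12.4) was the smallest of the 6, and its ratio over 36 h was 14.8-fold (13.4 to 16.4).

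HOXB1 (ENSG00000120094, chromosome 17, 48528526 to 48531001, minus strand), the most 3' gene of its cluster, had 4183 UMIs or 92.8 CPM in Meso 72 h cells. It had 0 UMIs in Endo 72 h cells and 8 UMIs (0.104 CPM) in 36 h cells. Against a floor of 3 counts in the Endo 72 h library it was 1045-fold higher in Meso 72 h, with a counting interval that begins at 849-fold. It was 895-fold above 36 h (454 to 2075). CDX2 (ENSG00000165556, chromosome 13, 27962137 to 27971139, minus strand), a homeobox activator of HOX genes in the caudal embryo, stood at 77.9 CPM in Meso 72 h cells, against 3 UMIs (0.0888 CPM) in Endo 72 h cells and 1.26 CPM in 36 h cells. The ratio over Endo 72 h was 877-fold with a counting interval of 300 to 4255, and the ratio over 36 h was 62.0-fold (50.7 to 76.6).

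MSX1 (ENSG00000163132, chromosome 4, 4859666 to 4863936, plus strand), a homeobox gene that BMP signalling induces, stood at 196 CPM in Meso 72 h cells, against 2.13 CPM in Endo 72 h cells and 4.11 CPM in 36 h cells. DKK1 (ENSG00000107984, chromosome 10, 52314296 to 52318042, plus strand), a secreted Wnt antagonist that Wnt signalling itself induces, was the most abundant of the 6 at 1381 CPM in Meso 72 h cells, against 6.10 CPM in Endo 72 h cells and 95.6 CPM in 36 h cells. MSX1 was 92.2-fold above Endo 72 h (73.1 to 118) and 47.9-fold above 36 h (42.8 to 53.7). DKK1 was 227-fold above Endo 72 h (198 to 261) and 14.4-fold above 36 h (14.1 to 14.8). Between the other two libraries the order was not the same for all 6: TBX6 was higher in Endo 72 h than in 36 h, and the other 5 were higher in 36 h.

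**Figure D1:**
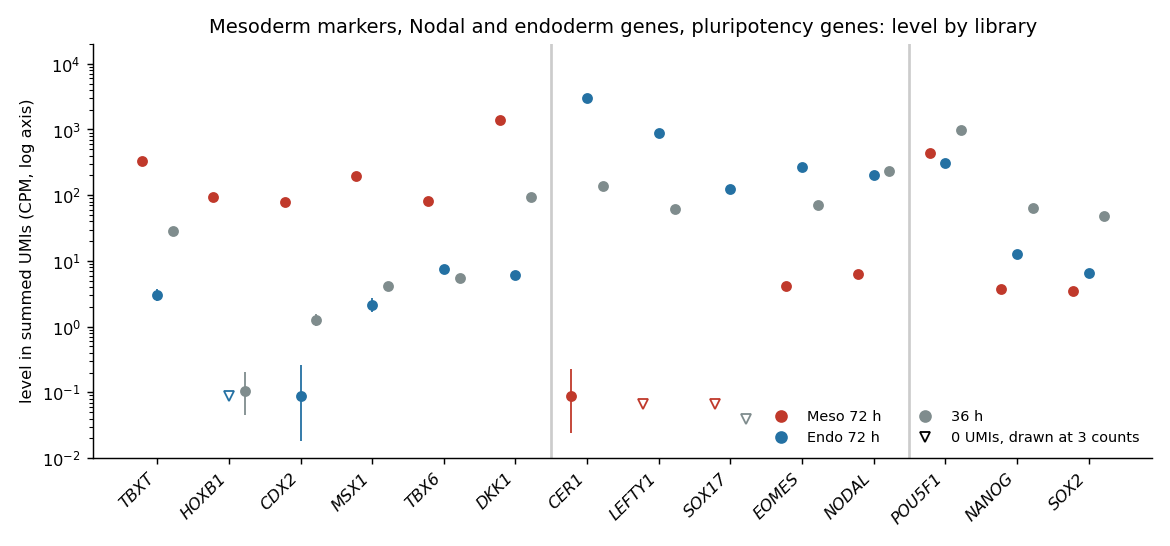
Level in summed UMIs (CPM, log axis) of the 6 mesoderm markers, of 5 Nodal and endoderm genes and of 3 pluripotency genes in Meso 72 h, Endo 72 h and 36 h cells; bars are exact 95% Poisson intervals, and an open triangle marks 0 UMIs, drawn at the level of 3 counts. The 6 markers are highest in Meso 72 h, where CER1 has 4 UMIs and LEFTY1 and SOX17 have none.

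The start regions of 4 of these 6 genes hold the 6-base core of the site that TCF and LEF factors, the DNA-binding partners of beta-catenin in Wnt signalling, recognise. They are shown because the 6 markers were high together in a library in which Wnt target genes were high as well. The windows run from 250 bases before to 50 bases after a gene's start (RefSeq, build GRCh38.p14), are written 5′ to 3′ along the gene's strand, and have each CTTTGA or TCAAAG, the same site on either strand, in capitals. Their positions are chr10:52314031-52314330 (plus strand) for DKK1, chr6:166167802-166168101 (minus) for TBXT, chr17:48530962-48531261 (minus) for HOXB1 and chr13:27969266-27969565 (minus) for CDX2. The CDX2 window and the TBXT window lie inside the gene spans given above, since the listed RefSeq starts are downstream of the GENCODE ends.
DKK1: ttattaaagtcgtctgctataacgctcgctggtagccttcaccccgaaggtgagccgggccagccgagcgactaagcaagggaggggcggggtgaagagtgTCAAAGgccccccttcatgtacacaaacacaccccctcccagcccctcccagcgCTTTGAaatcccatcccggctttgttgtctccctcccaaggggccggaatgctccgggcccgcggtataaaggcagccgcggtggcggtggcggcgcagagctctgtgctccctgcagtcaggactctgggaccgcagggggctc
TBXT: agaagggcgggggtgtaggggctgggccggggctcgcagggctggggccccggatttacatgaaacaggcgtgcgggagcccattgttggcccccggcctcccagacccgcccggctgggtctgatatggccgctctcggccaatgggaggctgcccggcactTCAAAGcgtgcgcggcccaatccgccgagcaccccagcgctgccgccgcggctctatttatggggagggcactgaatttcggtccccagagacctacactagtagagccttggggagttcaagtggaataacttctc
HOXB1: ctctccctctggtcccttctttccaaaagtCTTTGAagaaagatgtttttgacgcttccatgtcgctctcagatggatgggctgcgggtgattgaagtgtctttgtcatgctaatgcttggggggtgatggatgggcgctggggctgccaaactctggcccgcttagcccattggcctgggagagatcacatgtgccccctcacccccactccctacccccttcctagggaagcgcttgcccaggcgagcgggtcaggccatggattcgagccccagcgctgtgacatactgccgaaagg
CDX2: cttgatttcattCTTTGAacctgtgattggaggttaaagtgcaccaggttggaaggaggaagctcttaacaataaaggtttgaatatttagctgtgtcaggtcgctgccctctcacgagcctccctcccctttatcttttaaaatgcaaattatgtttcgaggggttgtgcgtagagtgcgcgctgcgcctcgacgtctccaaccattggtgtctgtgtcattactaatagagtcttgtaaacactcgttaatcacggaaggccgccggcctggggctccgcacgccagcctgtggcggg

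The DKK1 window held the core at 2 places, beginning 149 and 95 bases before the start. TBXT is listed with a pair of starts. The window shown, of the downstream start, held the core 87 bases before that start, and the window of the upstream start held none. In HOXB1 and CDX2 the core began 220 and 238 bases before the start. The windows of MSX1 and TBX6 held none. The core occurs in 12.9% of the 35116 windows listed. It was found for 11.3% of the 1981 genes with a listed window and at least 50 CPM in the higher of Meso 72 h and Endo 72 h, and for 11 of the 50 such genes at least 4-fold higher in Meso 72 h. A total of 4 motifs were searched on both strands, and the others stood in fewer of the 6 markers: TTTATG, read by CDX factors, in 1, AGGTCA, a nuclear receptor half-site, in 2, and GGTGTGA, a T-box half-site, in 0. Their shares of all windows were 10.6%, 13.8% and 3.45%. A match of letters is a description of the window and no evidence of binding.

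The markers differed in how many Meso 72 h cells they were found in, from most cells for DKK1 to a minority for HOXB1, TBX6 and CDX2. The library holds no cell type known to lack them and empty droplets were not used here, so the share of cells that free RNA alone would give was not measured. Depth differed between cells and libraries, so each cell was thinned to 2000 UMIs drawn without replacement. This left 5539 Meso 72 h cells, 3685 Endo 72 h cells and 3416 36 h cells, and left out 93, 826 and 777 shallower cells. After thinning, 95.8% of Meso 72 h cells (interval 95.2% to 96.3%) held a UMI of at least 1 of the 6 markers, against 3.09% of Endo 72 h cells (2.56% to 3.70%) and 14.1% of 36 h cells (12.99% to 15.35%). Without thinning the shares were 99.3%, 10.8% and 43.0%. DKK1 alone accounted for most of the Meso 72 h share. At least 2 markers were found in 72.0% of thinned Meso 72 h cells, against 0.0543% of Endo 72 h cells and 1.41% of 36 h cells.

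DKK1 was the most widely detected marker, with a UMI in 86.1% of thinned Meso 72 h cells, against 0.841% of Endo 72 h cells and 8.69% of 36 h cells. TBXT followed with 46.1%, against 0.380% of Endo 72 h cells and 4.95% of 36 h cells. MSX1 was found in 31.6% of Meso 72 h cells, against 0.380% of Endo 72 h cells and 0.820% of 36 h cells. HOXB1, TBX6 and CDX2 were found in 16.8%, 14.95% and 14.3% of Meso 72 h cells. HOXB1 was found in 0 of the 3685 Endo 72 h cells, which at a limit of 3 counts allows a share of cells with a UMI of up to 0.0814%. CDX2 was found in 1 of them. TBX6 was found in 1.52% of Endo 72 h cells, above its share of 0.790% in 36 h cells.

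Before thinning, the median Meso 72 h cell held 10 DKK1, 2 TBXT and 1 MSX1 UMIs. The UMIs of HOXB1, CDX2 and TBX6 had a median of 0, and 95% of cells held at most 3, 2 and 3 of them. In the same unthinned cells HOXB1 was detected in 47.8%, CDX2 in 44.8% and TBX6 in 41.5%, so at the depth of these libraries a cell at 0 cannot be read as a cell without the RNA.

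**Figure D2:**
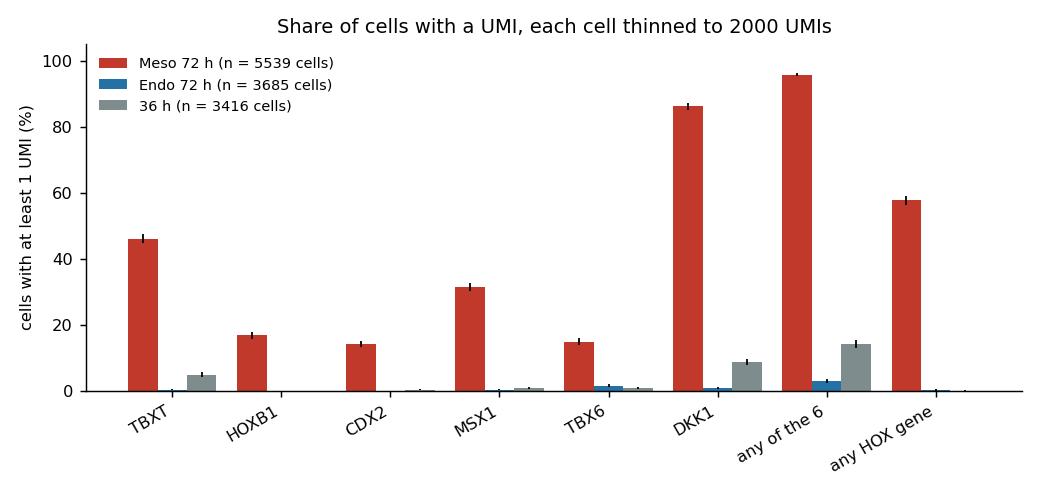
Share of cells (%) with at least 1 UMI of each marker, of any of the 6 markers and of any HOX gene, each cell thinned to 2000 UMIs, in Meso 72 h, Endo 72 h and 36 h cells; bars are exact 95% binomial intervals. Any of the 6 was found in 95.8% of Meso 72 h cells, and a HOX gene in 57.7%.

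Cell-to-cell spread of the markers was measured by the Fano factor, the variance over the mean of thinned UMIs, which is 1 where cells differ by random sampling alone and stays near 1 for genes with few UMIs per cell. CDX2 had a Fano factor of 1.00, HOXB1 1.07, TBX6 1.08, MSX1 1.12 and TBXT 1.13 in Meso 72 h cells. DKK1 stood at 1.94, with 13.9% of thinned cells at 0 where a Poisson law of the same mean gives 6.10%, and with a maximum of 102 UMIs in a single unthinned cell. In 36 h cells, few of which held it, DKK1 had a Fano factor of 3.98. Relative to its mean, the variance of DKK1 beyond sampling (the excess squared coefficient of variation) was 0.34 in Meso 72 h cells and 16.3 in 36 h cells. By that measure, which sets the mean aside, DKK1 did not stand out within Meso 72 h: TBX6 had 0.46, HOXB1 0.36, MSX1 0.31, TBXT 0.19 and CDX2 0.00.

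Over all genes Meso 72 h had few widely spread genes. Across the 1525 genes with at least 0.1 UMIs per thinned cell in every library, the median Fano factor was 1.03 in Meso 72 h, 1.06 in Endo 72 h and 1.03 in 36 h. A Fano factor above 1.5 was reached by 23 of these genes in Meso 72 h, 112 in Endo 72 h and 27 in 36 h. Depth moves with this difference: with only cells of at least 1000 genes the counts were 25, 83 and 25, and thinned to 4000 UMIs they were 60, 153 and 65. POU5F1, the core pluripotency factor, was even over Meso 72 h cells, with a Fano factor of 1.04, against 1.48 in Endo 72 h cells and 1.10 in 36 h cells. VIM, the intermediate filament of mesenchymal cells, stood at 1.45 in Meso 72 h, 2.51 in Endo 72 h and 1.34 in 36 h. KRT19, a keratin of simple epithelia, stood at 1.82 in Meso 72 h, 2.77 in Endo 72 h and 1.09 in 36 h.

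The 10 largest Fano factors in Meso 72 h belonged to MALAT1, HIST1H4C, LINC00458, the mitochondrial genes MT-CO2, MT-CO1, MT-CO3 and MT-ND4, DKK1, HSP90AB1 and FABP5. MALAT1, a nuclear long noncoding RNA, led with 4.0 in Meso 72 h, against 25.8 in Endo 72 h and 11.7 in 36 h. HIST1H4C, a histone gene of S phase, followed with 3.22 in Meso 72 h, against 3.65 in Endo 72 h and 3.62 in 36 h. By excess squared coefficient of variation the order was LRRC75A (2.38), HOXA-AS3 (2.32), NDUFA4L2 (2.24), DKK4 (2.13), CTNNB1 (2.13), CDKN1A (1.70), NTS (1.65), CXCR4 (1.65), AL009031.1 (1.54) and LIX1 (1.40). DKK4, a Wnt antagonist like DKK1, was thus more uneven than DKK1 within Meso 72 h, at 163 CPM and with a UMI in 22.8% of thinned cells.

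HOX genes reached 1 CPM in Meso 72 h cells and in neither other library, and most of their UMIs came from the 3' side of the clusters. Their sum over 39 HOX genes was 447 CPM in Meso 72 h cells, against 1.30 CPM in Endo 72 h cells and 0.907 CPM in 36 h cells. Paralogue groups 1 to 5, which lie 3' in the clusters, held 84.9% of the HOX UMIs in Meso 72 h, groups 6 to 9 held 14.9% and groups 10 to 13 held 0.253%. At least 1 CPM was reached by 19 of the 39 genes in Meso 72 h, 13 of the 15 in groups 1 to 5, 6 of the 12 in groups 6 to 9 and 0 of the 12 in groups 10 to 13, and by 0 genes in either other library.

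The HOXB cluster held 60.7% of the HOX UMIs in Meso 72 h and the HOXA cluster 34.9%, whereas HOXC and HOXD held 3.15% and 1.21%. Beside HOXB1 at 92.8 CPM, the levels included HOXB4 at 47.2 CPM, HOXB3 at 31.1 CPM, HOXA3 at 26.6 CPM and HOXB7 at 26.0 CPM in Meso 72 h. HOXB2 at 19.0 CPM, HOXB5 at 18.5 CPM and HOXB9 at 16.7 CPM followed, and HOXB13 was at 0.710 CPM. The levels did not descend step by step, as HOXB7 and HOXB9 exceeded HOXB6 (11.7 CPM) and HOXB8 (7.85 CPM). Neighbouring HOX genes overlap in the annotation (HOXB7 with HOXB9, HOXB3 with HOXB4), so the split of UMIs between them is uncertain. After thinning, 57.7% of Meso 72 h cells (56.4% to 59.0%) held a UMI of any HOX gene, against 0.244% of Endo 72 h cells and 0.146% of 36 h cells. Unthinned, the median Meso 72 h cell held 3 different HOX genes, and the highest 10.

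**Figure D3:**
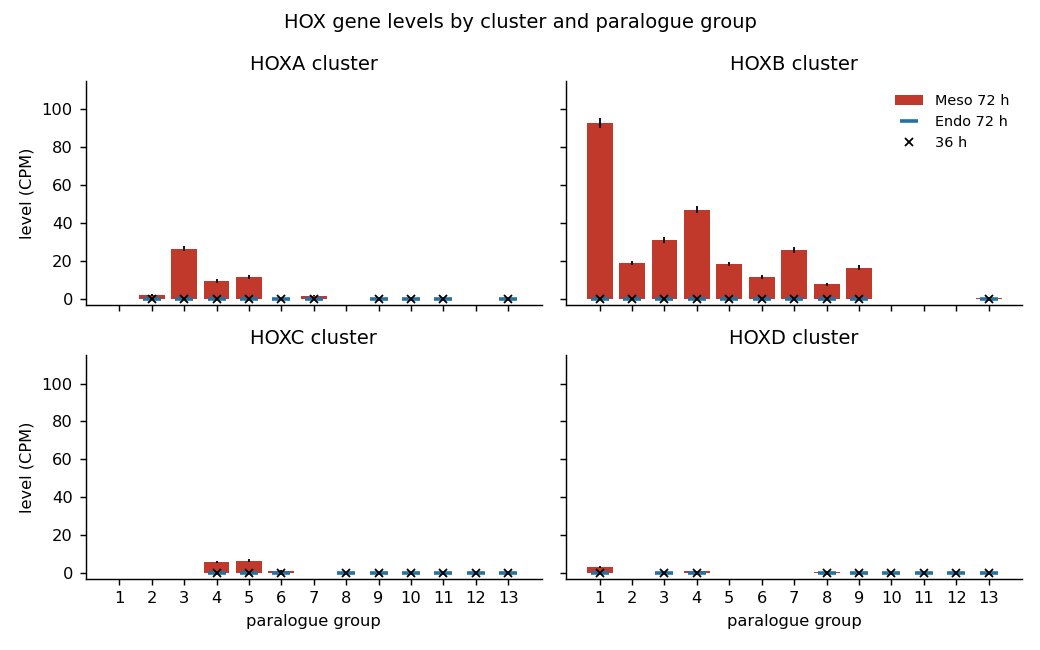
Level (CPM) of 38 HOX genes by paralogue group in the 4 HOX clusters, in Meso 72 h cells (bars, with exact 95% Poisson intervals), Endo 72 h cells (dashes) and 36 h cells (crosses). A position with no mark has no value drawn, which does not mean a level of 0. The tallest bar drawn is HOXB1 (92.8 CPM), and the dashes and crosses stay under 1 CPM throughout.

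Noncoding RNAs of the HOXA cluster were high with them. HOTAIRM1 was at 286 CPM in Meso 72 h, with 1 UMI in Endo 72 h and 3.09 CPM in 36 h. It was found in 42.6% of thinned Meso 72 h cells. HOXA-AS3, which overlaps HOXA3 to HOXA7 on the opposite strand, was at 54.4 CPM in Meso 72 h, with 1 UMI in Endo 72 h and 0 in 36 h. Whether strand was used in counting is not given in the sources used here, so reads of HOTAIRM1 and HOXA-AS3 may not be fully separated from those of genes on the opposite strand. The other CDX genes followed CDX2. CDX1 was at 59.2 CPM in Meso 72 h, 0.0592 CPM in Endo 72 h and 1.35 CPM in 36 h. CDX4 was at 72.1 CPM in Meso 72 h, 0.148 CPM in Endo 72 h and 6.57 CPM in 36 h, the highest of the CDX genes at 36 h.

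Over all genes, Meso 72 h was closer to 36 h than to Endo 72 h in the number of large differences. A level of 50 CPM or more in either of the compared libraries was asked of each gene. Of 2481 such genes, 65 were at least 4-fold higher in Meso 72 h than in Endo 72 h (2.62%) and 116 at least 4-fold lower (4.68%). Against 36 h, 56 of 2508 genes were at least 4-fold higher in Meso 72 h (2.23%) and 22 at least 4-fold lower (0.877%). The comparisons share the Meso 72 h library, and 32 genes were higher and 12 lower than in both. Against 36 h the share of higher among these genes depended on the scaling: it was 71.8% by CPM, 52.9% with TMM factors and 50.6% with median-of-ratios factors, which moved the median log2 ratio by -0.26 and -0.30.

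Among the 10 largest ratios over Endo 72 h were those of HOTAIRM1, TTC29, HOXA-AS3, HOXB1, CDX1, RSPO3, CDX2, CDX4 and FZD10. Among the 10 largest over 36 h were those of HOXA-AS3, HOXB1, TTC29, NDUFA4L2, CXCR4, HOTAIRM1, SLC16A3, RSPO3 and CDX2. TTC29, a gene with a role in sperm flagella, was at 66.0 CPM in Meso 72 h, with 1 UMI in Endo 72 h and 0.324 CPM in 36 h. NDUFA4L2 and CXCR4 were higher than at 36 h in both 72 h libraries. NDUFA4L2, a hypoxia-induced mitochondrial protein, was at 62.6 CPM in Meso 72 h, 55.8 CPM in Endo 72 h and 0.324 CPM in 36 h. CXCR4, the chemokine receptor used to sort definitive endoderm, was at 63.9 CPM in Meso 72 h, 143 CPM in Endo 72 h and 0.389 CPM in 36 h. SLC16A3, which exports lactate, was at 227 CPM in Meso 72 h, 49.8 CPM in Endo 72 h and 3.31 CPM in 36 h.

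The gene lists that follow are counted over all members with at least 3 UMIs in either compared library, so that no member is left out for a low level in the other. By that count 5.09% of 21185 genes were at least 4-fold higher in Meso 72 h than in Endo 72 h and 8.08% lower, with a median log2 ratio of -0.05. Over 36 h, 8.41% of 21021 genes were at least 4-fold higher and 2.12% lower, with a median of 0.28. Wnt targets were mostly higher in Meso 72 h. All 13 listed, the marker DKK1 among them, were counted. Of these, 9 were at least 4-fold higher in Meso 72 h than in Endo 72 h and 0 lower, with a median log2 ratio of 3.36. Over 36 h, 9 were at least 4-fold higher and 0 lower, with a median of 3.43. DKK4, at a log2 ratio of 2.03 over 36 h, was under 4-fold with TMM or median-of-ratios factors, with at most 5% mitochondrial UMIs and without cells above 2 times the median UMI count. NKD1, a feedback inhibitor of Wnt signalling, was at 132 CPM in Meso 72 h, 4.14 CPM in Endo 72 h and 6.57 CPM in 36 h. AXIN2, a feedback component of the beta-catenin destruction complex, was at 52.3 CPM in Meso 72 h, 13.8 CPM in Endo 72 h and 10.3 CPM in 36 h. SP5, a direct Wnt target, was at 72.4 CPM in Meso 72 h, 7.04 CPM in Endo 72 h and 31.8 CPM in 36 h.

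Some Wnt ligands were high as well. WNT5B was at 168 CPM in Meso 72 h, 0.770 CPM in Endo 72 h and 5.85 CPM in 36 h, and WNT5A at 47.5 CPM in Meso 72 h, 0.740 CPM in Endo 72 h and 1.09 CPM in 36 h. RSPO3, a secreted protein that raises Wnt receptor levels, was at 54.5 CPM in Meso 72 h, with 2 UMIs in Endo 72 h and 0.855 CPM in 36 h. Its ratio over Endo 72 h was 921-fold with a counting interval on the log2 scale of 7.99 to 12.89. FZD10, a Frizzled receptor, was at 67.0 CPM in Meso 72 h, 0.178 CPM in Endo 72 h and 1.41 CPM in 36 h. WNT3, the ligand of the early streak, was lower, at 2.53 CPM in Meso 72 h, 8.20 CPM in Endo 72 h and 17.6 CPM in 36 h. The secreted antagonists did not move together. Next to DKK1, DKK4 was at 163 CPM in Meso 72 h, 127 CPM in Endo 72 h and 39.9 CPM in 36 h. SFRP1 was at 12.2 CPM in Meso 72 h, 150 CPM in Endo 72 h and 12.4 CPM in 36 h, and SFRP2 at 32.3 CPM in Meso 72 h, 22.3 CPM in Endo 72 h and 242 CPM in 36 h.

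Several Nodal pathway genes were low in Meso 72 h. Of 10 members counted against Endo 72 h, 6 were at least 4-fold lower in Meso 72 h and 0 higher, with a median log2 ratio of -2.91. Over 36 h, 5 of 9 were at least 4-fold lower and 0 higher, with a median of -2.17. NODAL was at 6.27 CPM in Meso 72 h, 200 CPM in Endo 72 h and 237 CPM in 36 h. Its co-receptor TDGF1 was at 68.2 CPM in Meso 72 h, 724 CPM in Endo 72 h and 307 CPM in 36 h. LEFTY1, a secreted Nodal inhibitor and target, had 0 UMIs in Meso 72 h, 879 CPM in Endo 72 h and 62.5 CPM in 36 h. Against a floor of 3 counts LEFTY1 was 13220-fold lower in Meso 72 h than in Endo 72 h. That is a log2 ratio of -13.69, with a counting interval that ends at -13.39. LEFTY2, its close paralogue with which reads may be shared, was at 0.200 CPM in Meso 72 h, 697 CPM in Endo 72 h and 48.1 CPM in 36 h. FOXH1, the nuclear partner of SMAD2 in Nodal signalling, went the other way, at 320 CPM in Meso 72 h, 134 CPM in Endo 72 h and 198 CPM in 36 h, short of 4-fold.

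Most definitive endoderm genes were barely detected. Of the 17 listed, 11 were under 1 CPM in Meso 72 h and 3 had 0 UMIs. Of 16 counted against Endo 72 h, 12 were at least 4-fold lower in Meso 72 h and 1 higher, and of 15 counted against 36 h, 6 were lower and 3 higher. CER1, a secreted Nodal, BMP and Wnt antagonist, had 4 UMIs in Meso 72 h, 2963 CPM in Endo 72 h and 139 CPM in 36 h, a log2 ratio of -15.03 over Endo 72 h (interval -16.90 to -13.67). SOX17 had 0 UMIs in Meso 72 h, 122 CPM in Endo 72 h and 0 UMIs in 36 h. EOMES was at 4.19 CPM in Meso 72 h, 272 CPM in Endo 72 h and 71.2 CPM in 36 h. GATA6 was at 18.8 CPM in Meso 72 h, 158 CPM in Endo 72 h and 11.5 CPM in 36 h. CXCR4, given above, is also on the list.

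The 10 lowest ratios over Endo 72 h were those of CER1, LEFTY1, PLSCR2, PRSS2, mNeonGreen, LEFTY2, CYP26A1, CCDC81, HHEX and GYPB, where PRSS2 and GYPB belong to families of near-identical copies and are uncertain. The 10 lowest over 36 h were those of CER1, LEFTY1, CYP26A1, NODAL, FOXD3-AS1, NANOG, EOMES, MT2A, CAV1 and SFRP2. PLSCR2, a phospholipid scramblase family member, was at 0.377 CPM in Meso 72 h, 3221 CPM in Endo 72 h and 2.40 CPM in 36 h. MT2A, a metallothionein with close copies, was at 21.3 CPM in Meso 72 h, 193 CPM in Endo 72 h and 214 CPM in 36 h. CAV1, the caveolin coat protein, was at 11.0 CPM in Meso 72 h, 9.68 CPM in Endo 72 h and 92.8 CPM in 36 h.

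**Figure D4:**
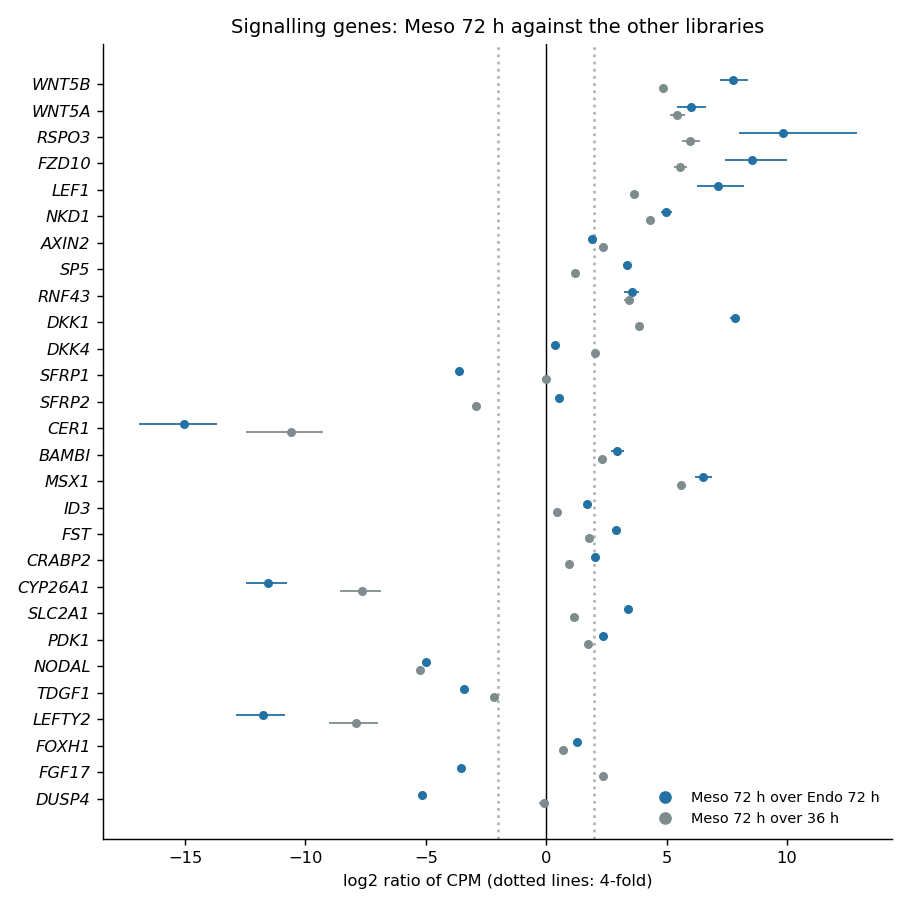
Log2 ratio of CPM of signalling and metabolic genes in Meso 72 h over Endo 72 h (blue) and over 36 h (grey), with exact 95% intervals from the UMI counts; dotted lines mark 4-fold. WNT5B, RSPO3, NKD1 and DKK1 lie above 4-fold in both comparisons, and CER1, CYP26A1, NODAL and LEFTY2 below it.

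Streak genes divided. Of 16 streak and nascent mesoderm genes, 6 were at least 4-fold higher in Meso 72 h than in Endo 72 h and 4 lower, with a median log2 ratio of 1.47. Over 36 h, 6 were likewise higher and 4 lower, with a median of 1.26. Higher with TBXT and SP5 was APLNR, the apelin receptor of nascent mesoderm, at 121 CPM in Meso 72 h, 4.32 CPM in Endo 72 h and 8.69 CPM in 36 h. GSC, of the anterior streak, was at 0.377 CPM in Meso 72 h, 99.8 CPM in Endo 72 h and 6.42 CPM in 36 h. LHX1, also anterior, was at 1.06 CPM in Meso 72 h, 986 CPM in Endo 72 h and 17.6 CPM in 36 h. MIXL1, shared by mesoderm and endoderm precursors, was at 232 CPM in Meso 72 h, 146 CPM in Endo 72 h and 132 CPM in 36 h.

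Of 13 presomitic and paraxial genes counted against Endo 72 h, 8 were at least 4-fold higher in Meso 72 h and 1 lower, and of 12 counted against 36 h, 9 were higher and 1 lower. The 16 listed summed to 261 CPM in Meso 72 h, 40.2 CPM in Endo 72 h and 18.4 CPM in 36 h, and 6 of them were under 1 CPM in Meso 72 h. Members of the segmentation clock were present at lower levels. DLL1, a Notch ligand, was at 32.6 CPM in Meso 72 h, 0.355 CPM in Endo 72 h and 0.298 CPM in 36 h. HES7, the oscillating repressor of the clock, was at 37.8 CPM in Meso 72 h, 0.444 CPM in Endo 72 h and 0.117 CPM in 36 h. MSGN1, a presomitic factor downstream of Wnt, reached 2.75 CPM in Meso 72 h, with 1 UMI in Endo 72 h and 0 in 36 h. Of the other listed genes, MEOX1 had 2 UMIs, TCF15 was at 0.643 CPM and UNCX had 0 UMIs in Meso 72 h. PAX3 and FOXC1 went the other way. PAX3 was at 7.92 CPM in Meso 72 h, with 0 UMIs in Endo 72 h and 0.0518 CPM in 36 h. FOXC1 was at 10.7 CPM in Meso 72 h, 4.71 CPM in Endo 72 h and 1.26 CPM in 36 h.

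The 16 lateral plate and cardiac genes summed to 261 CPM in Meso 72 h, 242 CPM in Endo 72 h and 38.8 CPM in 36 h, and 7 were under 1 CPM in Meso 72 h. Of 15 counted against Endo 72 h, 7 were at least 4-fold higher in Meso 72 h and 2 lower, and of 14 counted against 36 h, 8 were higher and 0 lower. MSX1 made up most of the Meso 72 h sum, and the next highest were PDGFRA at 18.9 CPM and GATA6. HAND1 was at 2.11 CPM, FOXF1 at 2.77 CPM, ISL1 at 0.554 CPM and NKX2-5 at 0.133 CPM. Of 12 endothelial and blood genes 7 were under 1 CPM in Meso 72 h, with CDH5 and TAL1 at 0 UMIs. LMO2 was the highest at 15.2 CPM in Meso 72 h, against 0.207 CPM in Endo 72 h and 0.117 CPM in 36 h. Of 8 members counted in each comparison, 2 were at least 4-fold higher in Meso 72 h and 1 lower. All 12 amnion, surface ectoderm and trophoblast genes were under 1 CPM in Meso 72 h, with a sum of 2.59 CPM in Meso 72 h, 17.0 CPM in Endo 72 h and 4.13 CPM in 36 h. Of 13 neural and neuromesodermal genes 4 had 0 UMIs, SOX1 and PAX6 among them. NKX1-2, a gene of caudal neuromesodermal progenitors, was at 24.3 CPM in Meso 72 h, 0.0296 CPM in Endo 72 h and 23.9 CPM in 36 h, whereas SOX2 was at 3.48 CPM in Meso 72 h, 6.66 CPM in Endo 72 h and 48.3 CPM in 36 h.

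Pluripotency genes stood at different levels. POU5F1 was at 434 CPM in Meso 72 h, 310 CPM in Endo 72 h and 995 CPM in 36 h, and was found in 57.7% of thinned Meso 72 h cells. NANOG was at 3.68 CPM in Meso 72 h, 12.7 CPM in Endo 72 h and 65.0 CPM in 36 h. Of 14 listed genes, 7 were at least 4-fold lower in Meso 72 h than in 36 h and 0 higher, with a median log2 ratio of -1.95, and 3 were lower than in Endo 72 h and 0 higher, with a median of -0.47. LIN28A, an RNA-binding protein of early cells, was at 222 CPM in Meso 72 h, 195 CPM in Endo 72 h and 234 CPM in 36 h.

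Among BMP targets, ID1 and ID3 were higher than in Endo 72 h and within 1.5 times their levels in 36 h, whereas MSX1 was far above both. ID3, a direct BMP target, was at 693 CPM in Meso 72 h, 213 CPM in Endo 72 h and 513 CPM in 36 h. ID1 was at 127 CPM in Meso 72 h, 55.9 CPM in Endo 72 h and 143 CPM in 36 h. Of 10 BMP targets, 3 were at least 4-fold higher in Meso 72 h than in Endo 72 h and 1 lower, and 4 were higher than in 36 h and 0 lower. FST, which binds Activin and BMPs, was at 255 CPM in Meso 72 h, 33.9 CPM in Endo 72 h and 73.9 CPM in 36 h. Of 12 FGF ligands and receptors, 4 were at least 4-fold higher in Meso 72 h than in Endo 72 h and 2 lower. The median log2 ratio was 1.00. Over 36 h, 3 were higher and 1 lower, with a median of 0.48. FGF17, an FGF8 family ligand of the streak, was at 125.5 CPM in Meso 72 h, 1463 CPM in Endo 72 h and 24.6 CPM in 36 h. Of 12 ERK feedback and target genes, 0 were at least 4-fold higher in Meso 72 h than in Endo 72 h and 1 lower. The median log2 ratio was -0.28. Over 36 h, 0 were higher and 1 lower, with a median of 0.34. The gene lower than in Endo 72 h was DUSP4, a phosphatase that ERK signalling induces. DUSP4 was at 7.25 CPM in Meso 72 h, 257 CPM in Endo 72 h and 7.65 CPM in 36 h.

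Genes that handle retinoids differed in both directions. CYP26A1, which degrades retinoic acid, was at 0.288 CPM in Meso 72 h, 858 CPM in Endo 72 h and 57.7 CPM in 36 h. CRABP2, which carries retinoic acid to the nucleus, was at 584 CPM in Meso 72 h, 143 CPM in Endo 72 h and 302 CPM in 36 h. ALDH1A2, which makes retinoic acid in somitic mesoderm, was at 7.18 CPM in Meso 72 h, with 1 UMI in Endo 72 h and 3 UMIs in 36 h.

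Epithelial and mesenchymal genes were both found in the Meso 72 h library, and whether the same cells held both was not examined. Of 13 epithelial adhesion genes, 0 were 4-fold higher or lower in Meso 72 h than in Endo 72 h, with a median log2 ratio of -0.36, and over 36 h 1 was higher and 1 lower. CDH1, E-cadherin, was at 47.6 CPM in Meso 72 h, 21.9 CPM in Endo 72 h and 35.2 CPM in 36 h. CDH2, N-cadherin, was at 124 CPM in Meso 72 h, 202 CPM in Endo 72 h and 32.7 CPM in 36 h. VIM was at 566 CPM in Meso 72 h, 591 CPM in Endo 72 h and 72.7 CPM in 36 h. CDH11, a cadherin of mesenchyme, was at 46.2 CPM in Meso 72 h, 0.799 CPM in Endo 72 h and 3.03 CPM in 36 h.

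Of the matrix genes, COL5A2 was at 6.59 CPM in Meso 72 h, 163 CPM in Endo 72 h and 4.83 CPM in 36 h. VCAN, a large proteoglycan, was at 73.3 CPM in Meso 72 h, 11.4 CPM in Endo 72 h and 89.5 CPM in 36 h. Of 20 glycolysis and hypoxia genes, 2 were at least 4-fold higher in Meso 72 h than in Endo 72 h and 1 lower. The median log2 ratio was 0.28. Over 36 h, 2 were higher and 1 lower, with a median of 0.80. Their summed level was 10160 CPM in Meso 72 h, 9264 CPM in Endo 72 h and 9532 CPM in 36 h. Among them SLC2A1, a glucose transporter, was at 139 CPM in Meso 72 h, 13.02 CPM in Endo 72 h and 61.7 CPM in 36 h. PDK1, which holds pyruvate back from the mitochondria, was at 81.4 CPM in Meso 72 h, 15.9 CPM in Endo 72 h and 24.7 CPM in 36 h. PKM and SLC2A3 of the same list were lower than in Endo 72 h, at log2 ratios of -0.88 and -0.84, short of 4-fold. Of 14 p53 targets, 3 were at least 4-fold higher in Meso 72 h than in Endo 72 h and 0 lower. The median log2 ratio was 0.67. Over 36 h, 5 were higher and 0 lower, with a median of 1.49. CDKN1A, a p53 target that halts the cell cycle, was at 54.1 CPM in Meso 72 h, 4.38 CPM in Endo 72 h and 3.74 CPM in 36 h. BAX, another p53 target, was at 253 CPM in Meso 72 h, 199 CPM in Endo 72 h and 293 CPM in 36 h. The summed level of 24 genes of G2 and mitosis was 2923 CPM in Meso 72 h, 2994 CPM in Endo 72 h and 3140 CPM in 36 h, and that of 20 S-phase genes was 970 CPM in Meso 72 h, 568 CPM in Endo 72 h and 1207 CPM in 36 h. No member of these cell cycle lists differed by 4-fold from either library. Of 19 cholesterol synthesis genes, 0 differed by 4-fold from Endo 72 h. Over 36 h, 1 of them was at least 4-fold higher and 0 lower.

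Within Meso 72 h the markers occurred together about as often as their own shares gave. Over the 15 pairs of the 6 markers, the number of thinned cells with both was 0.96 to 1.31 times the product of the shares. The highest was HOXB1 with TBX6, in 183 cells against 139 from the product. TBXT with TBX6 was in 373 cells against 381. Correlations of log UMI counts between markers lay within 0.062 of 0 in these 5539 cells, which share a library and are sparse, so no relation can be read from them. These values depended on the setting. Over the alternatives run the pair ratios lay between 0.82 and 1.34. The largest absolute r between markers was 0.040 thinned to 1000 UMIs and 0.138 thinned to 4000 UMIs. The most alike genes by this measure were, for TBXT, AL353747.4 (r = 0.062) and DKK1 (0.059). For TBX6 it was SYT1 (0.10), for HOXB1 IFT57 (0.091), for CDX2 ZNF12 (0.059), for MSX1 MT-CYB (0.082) and for DKK1 KRT19 (0.140). The lowest r of a marker was that of DKK1 with RPS18 (-0.166).

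The cells were split into clusters by Leiden community detection on variable genes, which gave 6 groups, here called by number. Cluster genes define the clusters, so the values that follow are a description. Cluster 0, with 1813 cells, had ID2, AC106864.1, TNFRSF12A and NEFL among its leading genes. Cluster 1, with 1098 cells, was led by the cell cycle genes UBE2C, SGO2, AURKA, TOP2A and ASPM. Cluster 2, with 1020 cells, was led by HSPA5, MSH6, SERPINE2, CLSPN and HDAC2. Cluster 3, with 818 cells, was led by NDUFA4L2, IFT57, CXCR4, NTS and APLNR. Cluster 4, with 764 cells, was led by AC092069.1, LRRC75A, CTNNB1, C1orf56 and HNRNPH1. Cluster 5, with 119 cells, was led by CCNB1, CDK1, BCAS2, MAD2L1 and PSAT1. Its median was 2096 UMIs, against 7874 in the library, and its median mitochondrial share was 0.05%, against 2.84% to 3.68% in the others.

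All 6 markers were present in every cluster, at levels that differed between clusters 0 and 3 most for TBX6. TBX6 was at 162 CPM in cluster 3 (interval 152 to 173), against 37.0 CPM in cluster 0 (34.0 to 40.3). HOXB1 was at 150 CPM in cluster 3, against 56.6 CPM in cluster 0. TBXT ran the other way, with 201 CPM in cluster 3, against 350 CPM in cluster 0. APLNR and RSPO3 followed TBX6. APLNR was at 276 CPM in cluster 3, against 38.7 CPM in cluster 0, and RSPO3 was at 99.5 CPM in cluster 3, against 21.8 CPM in cluster 0. MIXL1 and NKX1-2 were, like TBXT, lower in cluster 3 than in cluster 0. Elsewhere they did not keep step with it: in cluster 2 TBXT was at 357 CPM, MIXL1 at 208 CPM and NKX1-2 at 18.1 CPM. MIXL1 was at 135 CPM in cluster 3, against 293 CPM in cluster 0, and NKX1-2 was at 1.84 CPM in cluster 3, against 45.6 CPM in cluster 0. CDX2 varied least, between 65.7 CPM in cluster 2 and 86.9 CPM in cluster 0.

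Thinned cells with a TBX6 UMI made up 26.7% of cluster 3, against 7.04% of cluster 0, and cells with a TBXT UMI made up 30.5% of cluster 3, against 48.6% of cluster 0. Cluster 4 had marker levels like those of the library as a whole, with TBXT at 352 CPM and TBX6 at 75.2 CPM. The number of clusters was 5 to 8 at other settings, and with the cell cycle genes left out of the variable genes the partition had an adjusted Rand index of 0.315 with the one given. A cluster of 119 cells was the smallest at each setting run. The clusters were given no cell type names.

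**Figure D5:**
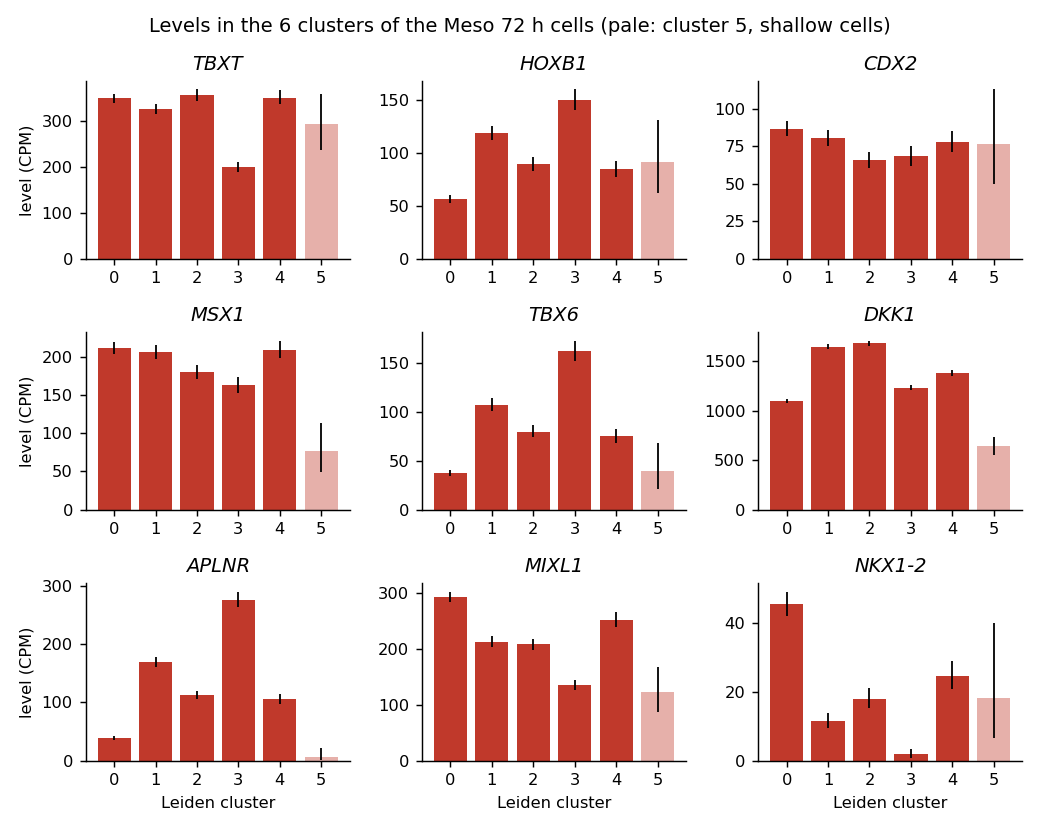
Level (CPM) of the 6 markers and of APLNR, MIXL1 and NKX1-2 in the 6 Leiden clusters of the Meso 72 h cells, with exact 95% Poisson intervals; the pale bar is cluster 5, of 119 shallow cells. TBX6, HOXB1 and APLNR are tallest in cluster 3, where TBXT, MIXL1 and NKX1-2 are lower than in cluster 0.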

How the data were processed

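Single-cell RNA was measured in 3 libraries of H1 cells (droplet 3' chemistry, version 2), 1 per group. Groups came from the labels' treatment and stage. The authors deposited counts, as UMIs per gene and barcode, made with Cell Ranger 3.0.2 per the file headers. GRCh38 and Seurat 4.0.2 are listed in the submitters' processing notes. The bulk samples and a matrix aggregating the libraries were not used here.

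Barcodes under 500 genes or over 10% mitochondrial UMIs were dropped. UMIs were summed over cells to CPM. Ratios carry exact intervals conditional on both counts, and a gene at 0 stands at a floor of 3 counts per library. A gene was set apart at 4-fold where either library reached 50 CPM. Gene lists were counted over members with at least 3 UMIs in either library. With 1 library per group no p-value was computed. Shares and spread used cells thinned to 2000 UMIs, and the drawn marker shares lay within 0.61 percentage points of their exact expectation. Correlations used the 7169 genes with a UMI in at least 100 of the thinned cells. Cells were clustered with scanpy 1.11.5 and leidenalg 0.10.2 (2000 variable genes, 30 components, 15 neighbours, resolution 0.5). Scrublet marked 6 cells (0.107%), too few for a working call, and none was removed, so doublets may remain. TMM factors came from edgeR 4.0.16.

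Members, markers and the 31 gene lists were chosen with earlier results of these data known. Named were the 6 markers, the 10 largest ratios each way per comparison (without clone, LINC or MT- names), up to 4 list members with the largest ratio and at least 50 CPM, defining genes of a list (chosen as such, at any level), the 10 most spread genes by each measure, 5 leading genes per cluster (at least 100 CPM in it) and the most correlated genes per marker. Other list members named, such as WNT5A, WNT3, DLL1, HES7, MSGN1, LIN28A, CDH1, CDH11 and ALDH1A2, and the genes compared between clusters 0 and 3, were chosen after their values were seen. Ratio and thinning steps were tested on simulated data. Some results for single genes are not reported here.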

Additional observations from a re-analysis of the deposited data

How the results depend on the processing

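No paired analysis was possible because each group has 1 library. Counts of genes at least 4-fold apart were 181 between Meso 72 h and Endo 72 h and 78 between Meso 72 h and 36 h. Leaving out mitochondrial and ribosomal protein genes from the totals raised them to 301 (111 higher, 190 lower) and 152 (123 higher, with lower within 1.5 times). A level limit of 10 CPM gave 594 (247 higher, 347 lower) and 310 (249 higher, 61 lower), and no limit but 3 UMIs gave 2791 (1079 higher, 1712 lower) and 2212 (1767 higher, 445 lower), since more genes then enter. Against 36 h the lower genes were 40 with TMM factors and 44 with median-of-ratios factors in place of 22, and the cause was not tested. Filters on cells, cells above 2 times the median UMI count, the mean over cells, and the alternatives added after seeing the data (only cells with at least 2000 UMIs, and no clusters 4 and 5) kept each count within 1.5 times. The share of Meso 72 h cells with any of the 6 markers was 83.9% thinned to 1000 UMIs and 99.2% thinned to 4000, by construction of the depth. The median Fano factor, the median ratio of observed to expected pairs and the number of clusters stayed close under the alternatives run. Of the markers, the genes with the largest ratios and the leading list members at least 4-fold apart, none changed direction under the alternatives run. As these genes were at least 4-fold apart to begin with, a change of direction was unlikely in advance. Their unchanged direction therefore lends the ratios no support and says nothing of their size. Genes with few UMIs, and cells at 0, are limited by depth. No replicate library bears on any difference.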

Other observations

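The 634 barcodes of the Meso 72 h library that the filter left out, 586 of them for a mitochondrial share above 10%, also held the markers. DKK1 was at 2786 CPM in them (1987 UMIs), against 1381 CPM in the kept cells. TBX6 was at 151 CPM in the left-out barcodes (108 UMIs), against 82.1 CPM in the kept cells, and HOXB1 at 50.5 CPM in the left-out barcodes (36 UMIs), against 92.8 CPM in the kept cells. TBXT was at 273 CPM in the left-out barcodes and 326 CPM in the kept cells.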
